A study of Artemia parthenogenetic lineage with 3 samples.

Results

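Deep gene body peaks were taken as the merged ATAC-seq peaks that lay wholly inside their assigned gene, more than 20 kb from its start and more than 1 kb from its 3′ end, in genes shorter than 200 kb. This rule used position only and found 21297 of the 108316 merged peaks (19.7%), in 5672 of the 12002 listed genes (47.3%) and on 1564 contigs. ATAC-seq marks accessible DNA by the insertion of adapters with the Tn5 transposase. The 3 libraries formed a single group, ArR_30min. They were made from wild-type *Artemia* cysts of a parthenogenetic lineage, sampled when 30 min had passed since embryonic diapause termination (EDT). Diapause had been broken by dehydration and refrigeration, and the dry cysts were rehydrated in cold artificial seawater and reactivated in warm seawater under continuous light. The study describes the libraries as biological replicates from the same batch of cysts, so SD and p-values cover the spread within that batch. Whole cysts were used, and a fully open site in a few cells and a partly open site in many cells cannot be told apart. Positions are on the ASM3288406v1 assembly of the related *Artemia franciscana*.

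A cyst holds an embryo stopped at the gastrula stage, which resumes metabolism and development once diapause ends. In animals generally, accessible sites inside long genes lie mostly in introns and include enhancers, promoters of alternative transcripts and boundary elements, while the promoter of an active gene is often its most accessible site. Introns and exons were not separated here, and the gene ends are those of gene models.

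The deep gene body peaks were numerous, narrow and mostly low in signal. Their distance from the gene start had a median of 45.7 kb (quartiles 31.2 and 69.1 kb) and reached 195 kb. Host genes had a median length of 75.4 kb (quartiles 51.9 and 111 kb) and held a median of 3 deep peaks each. A single deep peak was held by 1489 hosts, while 335 hosts with 10 or more held 4295 of the peaks. The median width was 304 bp (quartiles 228 and 432 bp), near the 317 bp of all merged peaks. Together the deep peaks covered 7.95 Mb. More than 1 summit was listed for 40.7% of the deep peaks and for 45.1% of all merged peaks. Joined gene identifiers, which combine neighbouring gene models, applied to 889 deep peaks, and 82 overlapped a further listed gene.

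Signal was given as RPM, the reads of a peak scaled to the library total. The library totals, recovered from the rounded RPM values, were 53022269, 56882844 and 82440231 reads in replicates 1, 2 and 3, and a median deep peak held 34, 35 and 55 reads. Replicate 1 stood apart from the other libraries at gene starts, where its signal was 1.37 times the geometric mean of replicates 2 and 3 in the median peak. At the deep gene body peaks this ratio was 1.00, and 50.4% of them were higher in replicate 1. Results that involve start peaks therefore rest in part on replicate 1. Their main medians and log2 differences are given for each replicate, while several gene counts, ratios and correlations are not.

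The median signal of the deep peaks was 0.660, 0.633 and 0.679 RPM in replicates 1, 2 and 3 (0.657 ± 0.0233, SD, n = 3). Over all merged peaks the medians were 0.698, 0.668 and 0.716 RPM, higher in every replicate. Deep peaks took 17.0%, 17.2% and 17.3% of the reads in merged peaks (17.2% ± 0.132, SD, n = 3), below their 19.7% share of the list. The mean signal over replicates lay between 0.318 RPM at the 5th and 2.46 RPM at the 95th percentile of the deep peaks. The highest reached 94.6 RPM.

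At or above the all-peak median in every replicate were 7285 deep peaks (34.2%), against 38.3% of all merged peaks. A signal of 2 RPM or more in every replicate was found at 1200 deep peaks (5.63%), against 7.78% of all merged peaks. Both shares were thus below the background of the list. The 1200 strong peaks lay in 763 genes, 13.5% of the hosts, and held 27.1%, 25.8% and 25.2% of the reads of deep peaks in replicates 1, 2 and 3. They were wider than the rest, with a median width of 840 bp. RPM is not scaled to width, so the cut at 2 RPM itself favours wide peaks. It was passed by 0.0576% of deep peaks up to 250 bp wide and by 100% of those over 1500 bp.

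The first comparison asked whether the signal of gene body peaks depends on how far inside the gene they lie. Peaks in the early gene body, 3 to 20 kb from the start of genes under 200 kb, numbered 10438. Their median signal was 0.707, 0.686 and 0.728 RPM in replicates 1, 2 and 3. Each of these values was above that of the deep peaks in the same replicate. On the log2(RPM + 0.0691) scale the deep peaks were lower by a difference of -0.09, -0.10 and -0.09, with a mean of -0.10 ± 0.01 (SD, n = 3). The sign-flip permutation test over the replicates (exact and two-sided) gave p = 0.25, the smallest value that 3 replicates allow. Among peaks at or above the median signal the difference was smaller, at -0.02. This setting keeps peaks by the same signal that is compared, which by itself can shrink or shift a difference. In 3785 genes with peaks of both kinds, the median difference within the gene was -0.04, -0.01 and -0.03, with a mean of -0.03 ± 0.01 (SD, n = 3, p = 0.25, exact sign-flip permutation test). This difference within genes did not keep its sign. It was 0.00059 with a pseudocount 10 times larger and 0.03 among the peaks at or above the median.

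Among the deep peaks themselves, signal fell slowly with distance from the start. The median over replicates was 0.678 ± 0.0266 RPM for the 4834 peaks at 20 to 30 kb (SD, n = 3). It was 0.667 ± 0.0214 at 30 to 50 kb, 0.657 ± 0.0233 at 50 to 75 kb, 0.631 ± 0.0212 at 75 to 100 kb and 0.619 ± 0.0169 RPM for the 1948 peaks beyond 100 kb. Each step was smaller than or near to the SD over replicates, while the whole decline was larger. This SD is the spread between libraries and does not measure the steps within a library. Within each replicate the median fell or stayed equal at every step. The 9439 peaks beyond 50 kb had medians of 0.641, 0.633 and 0.667 RPM in replicates 1, 2 and 3. The 11858 peaks at 20 to 50 kb had 0.679, 0.650 and 0.704 RPM, higher in every replicate. The log2 difference was -0.07, -0.04 and -0.07, with a mean of -0.06 ± 0.02 (SD, n = 3, p = 0.25, exact sign-flip permutation test). Within 2361 genes that held peaks on both sides of 50 kb the difference was -0.03, -0.01 and -0.01, with a mean of -0.02 ± 0.01 (SD, n = 3, p = 0.25, exact sign-flip permutation test). Among peaks at or above the median signal the difference by distance was -0.01, both overall (p = 0.5, exact permutation test) and within genes (p = 1). Gene length moved with distance, and the median signal ranged from 0.694 RPM in genes of 50 to 75 kb to 0.631 RPM in genes of 150 to 200 kb.

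**Figure D1:**
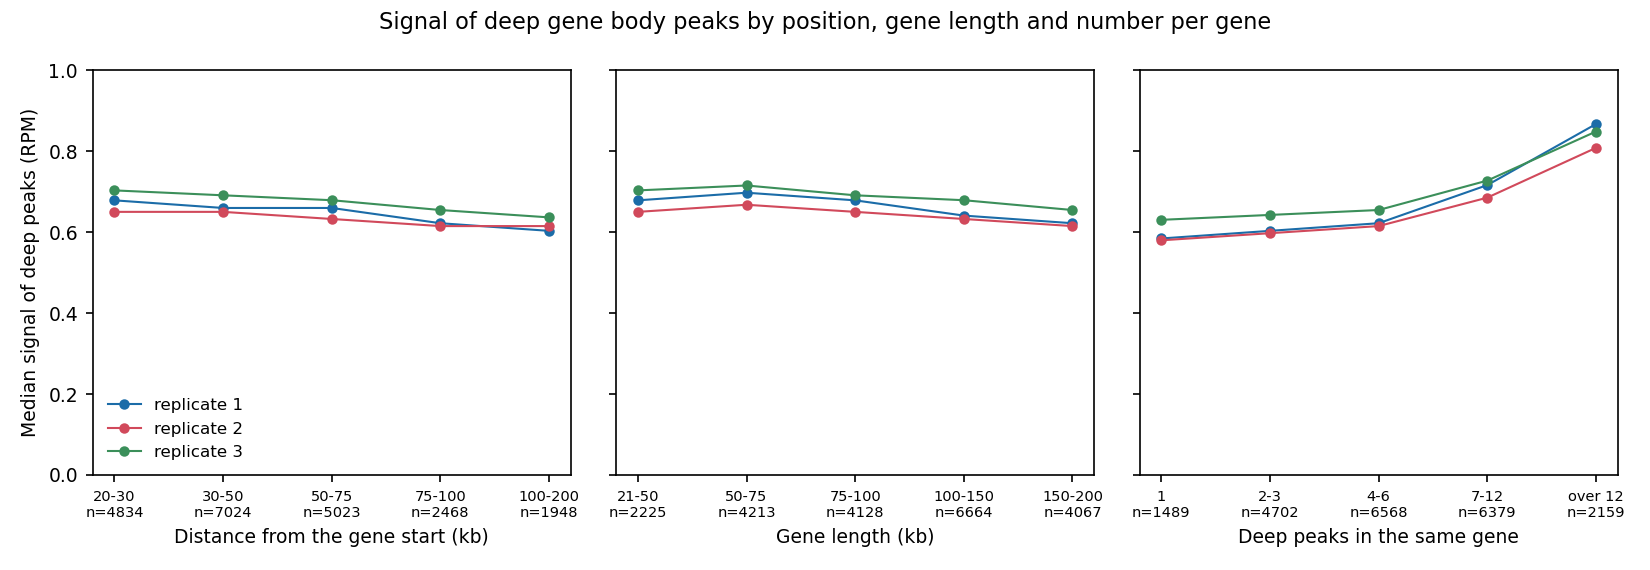
Median ATAC-seq signal (RPM) of deep gene body peaks in each replicate, by distance from the gene start, by gene length and by the number of deep peaks in the same gene; n is the number of peaks. The medians declined from 0.678 to 0.619 RPM (means of the replicates) over distance and rose from 0.599 to 0.842 RPM with the number of peaks per gene.

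Deep peaks in genes of 200 kb or more formed the closest class by position. The 1946 peaks in 192 such genes had median signals of 0.622, 0.615 and 0.643 RPM, below the deep peaks of shorter genes in every replicate. The log2 difference, shorter minus longer genes, was 0.08, 0.04 and 0.07, with a mean of 0.06 ± 0.02 (SD, n = 3, p = 0.25, exact sign-flip permutation test). With 1 value per gene it was 0.02 and no longer had the same sign in every replicate (p = 0.75, exact sign-flip permutation test). At 2 RPM or more in every replicate were 3.49% of the peaks in the long genes.

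Intergenic peaks 20 to 100 kb upstream of a start, which lie as far from a start as deep peaks but outside every listed gene, numbered 17610. Their median signals were 0.660, 0.650 and 0.691 RPM, equal to the deep peaks in replicate 1 and higher in replicates 2 and 3. The log2 difference was 0.00, -0.04 and -0.02, with a mean of -0.02 ± 0.02 (SD, n = 3, p = 0.5, exact sign-flip permutation test). Upstream peaks were wider, with a median of 318 bp, and per kb of width the difference turned to 0.04 ± 0.02 (SD, n = 3). The direction between these classes thus depended on whether signal was counted per peak or per length.

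**Figure D2:**
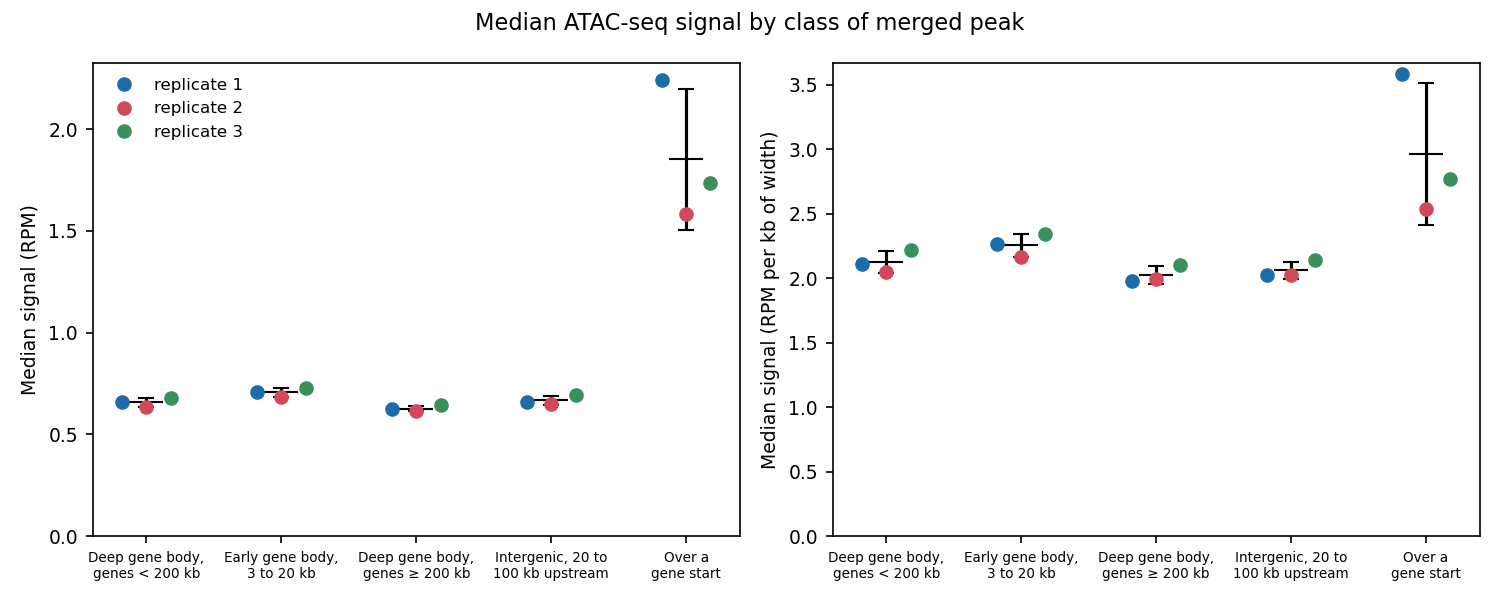
Median signal of each class of merged peak in replicates 1 to 3 (points), with the mean and SD over replicates (bars), as RPM on the left and RPM per kb of peak width on the right. The deep peaks (0.657 ± 0.0233 RPM) lay close to the early and upstream intergenic peaks, while peaks over a gene start were higher in every replicate.

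Peaks over the start of a gene carried several times the signal of the deep peaks. The 3126 start peaks had medians of 2.24, 1.58 and 1.73 RPM in replicates 1, 2 and 3, and replicate 1 was the highest. In the 1812 genes with both a start peak and deep peaks (31.9% of the hosts), the median log2 difference within the gene, deep minus start, was -1.66, -1.21 and -1.23. Its mean was -1.37 ± 0.25 (SD, n = 3, p = 0.25, exact sign-flip permutation test). The median start peak was 639 bp wide, and per kb of width the difference was -0.70, -0.29 and -0.30, with a mean of -0.43 ± 0.23. The deep peaks stayed below the start peaks in every replicate on both scales.

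Some genes were exceptions. The strongest deep peak exceeded the start peak of its own gene in mean signal in 411 of the 1812 genes (22.7%) and in every replicate in 289 (15.9%). It was at least 2 times as high in every replicate in 105 genes. The median ratio of the strongest deep peak to the start peak was 0.542 (quartiles 0.322 and 0.931). Per kb of width, 519 genes (28.6%) had a deep peak above the start peak. In the 1252 genes that also held early peaks, the strongest deep peak exceeded the start peak in 285 genes (22.8%) and the strongest early peak in 184 (14.7%). These genes held a median of 3 deep and 2 early peaks, and a maximum over more peaks is higher.

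The 10 genes with the largest excess of a deep peak over the start peak had ratios from 6.52 to 12.02. In evm.TU.ctg210.33, a gene of 191 kb with 9 deep peaks, the peak at ctg210:3170561-3171042 had 16.5, 14.9 and 15.0 RPM in replicates 1, 2 and 3. The start peak of this gene had 1.58, 1.16 and 1.12 RPM. The ratio lay between 10.4 and 13.4 in the replicates, and the median of the 9 deep peaks was 0.454 RPM, so a single peak stood out. In evm.TU.ctg363.6 a peak 76.8 kb from the start had 23.7, 16.8 and 20.2 RPM, and the start peak 2.89, 2.07 and 1.99 RPM. The groups of replicate values did not overlap.

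In evm.TU.ctg620.17, which the study's annotation places in the clathrin coat that forms vesicles at the Golgi and the plasma membrane, a peak of 8.66, 10.3 and 10.3 RPM lay 71.0 kb from a start with 0.886, 0.949 and 1.61 RPM. evm.TU.ctg37.49 differed from these, since all 3 of its deep peaks were strong. They had a lowest mean of 5.62 and a highest of 14.5 RPM, over a start peak of 1.77 ± 0.187 RPM (SD, n = 3). The largest excess fell in different parts of genes, from 27.2 kb past the start in evm.TU.ctg37.49 to 97.7 kb in evm.TU.ctg320.22. The other genes of this set were evm.TU.ctg432.13, evm.TU.ctg53.23, evm.TU.ctg64.2, evm.TU.ctg222.1 and evm.TU.ctg561.17, with ratios of 8.69, 8.19, 7.36, 7.15 and 6.52. Per kb of peak width the ratios of the 10 genes ranged from 1.22 in evm.TU.ctg432.13 to 14.6 in evm.TU.ctg210.33. They were below 3 in evm.TU.ctg37.49, evm.TU.ctg53.23, evm.TU.ctg320.22 and evm.TU.ctg64.2 too, at 1.80, 2.16, 2.16 and 2.79. These 10 genes were chosen by this ratio, so their values are a description.

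**Figure D3:**
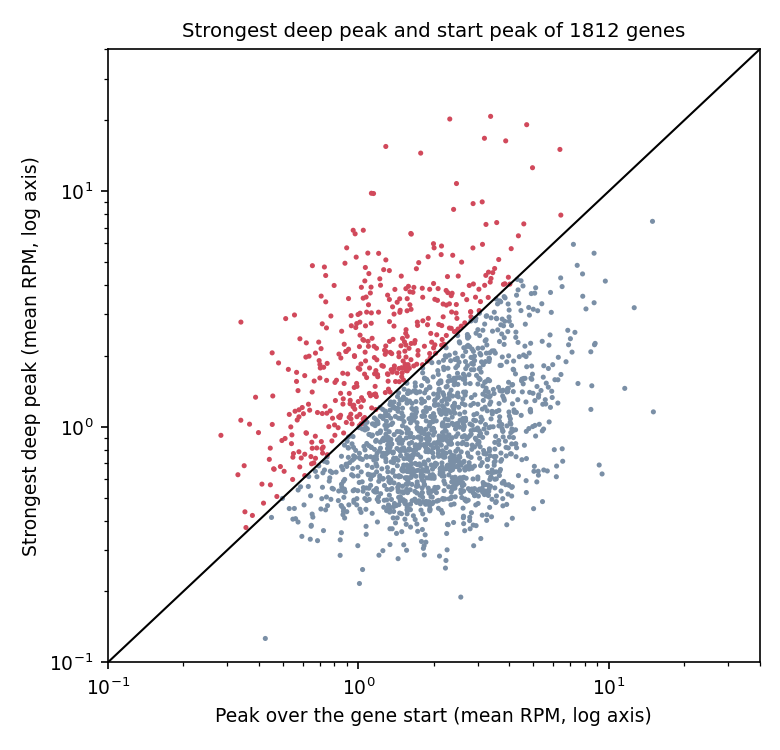
Mean signal of the strongest deep peak against that of the start peak in the 1812 genes with both, on log axes; the line marks equal signal. The 411 genes above the line (red) had a deep peak stronger than their start peak.

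Deep peaks in genes with a peak over their start were slightly stronger than those in other genes. The 6763 peaks whose host had a start peak had medians of 0.698, 0.668 and 0.716 RPM, and the 14534 others 0.622, 0.633 and 0.667 RPM. The difference was positive in every replicate, at 0.15, 0.07 and 0.09 on the log2 scale, with a mean of 0.10 ± 0.04 (SD, n = 3, p = 0.25, exact sign-flip permutation test). Among peaks at or above the median signal it was -0.01. Across the 1812 genes, start signal and the mean signal of the deep peaks had a Pearson r of 0.223 and a Spearman rho of 0.231. This is a description across genes measured in the same libraries.

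Deep peaks were more thinly spread than early ones. The 7839 listed genes long enough to hold a deep peak had 409 Mb of deep gene body, with 52.1 deep peaks per Mb, or 1 per 19.2 kb. The early gene body of the same genes held 69.4 peaks per Mb. A further 6236 peaks lay in this deep zone but were assigned to another gene. With every peak counted wherever it was assigned, the densities were 67.4 and 70.8 per Mb. The ratio of deep to early density was 0.751 by assigned peaks and 0.952 by all peaks. At least 1 deep peak was found in 72.4% of these genes, from 44.1% of genes under 50 kb to 96.9% of genes of 150 kb or more. A longer gene also has a longer deep zone in which a peak can lie. The density of assigned peaks fell from 56.8 to 49.4 per Mb across the same range. The trend with gene length was not given for all peaks.

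Peaks that lay close to another peak were stronger. The 7885 deep peaks with a merged peak within 2 kb had medians of 0.736, 0.703 and 0.752 RPM, and the 13412 without one 0.604, 0.607 and 0.655 RPM. These values did not overlap between the sets. The log2 difference was 0.26, 0.19 and 0.18, with a mean of 0.21 ± 0.04 (SD, n = 3, p = 0.25, exact sign-flip permutation test). Among peaks at or above the median signal the difference was 0.07. By distance to the nearest peak, the median fell from 0.730 ± 0.0249 RPM within 1 kb to 0.572 ± 0.0309 RPM beyond 10 kb.

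Neighbouring deep peaks of a gene also resembled each other in signal. Over 15625 pairs of successive deep peaks, with a median gap of 6.09 kb, the log2 signals had a Pearson r of 0.353. It was 0.537 for the 3110 pairs up to 1 kb apart and 0.535 for the 1161 pairs at 1 to 2 kb. It fell to 0.449, 0.279 and 0.154 at 2 to 5, 5 to 10 and 10 to 20 kb, and to 0.0702 for the 1980 pairs over 20 kb apart. Likeness was thus seen mainly between peaks a few kb apart. The pairs share libraries and local base composition, and a wide accessible region may be listed as several peaks.

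**Figure D4:**
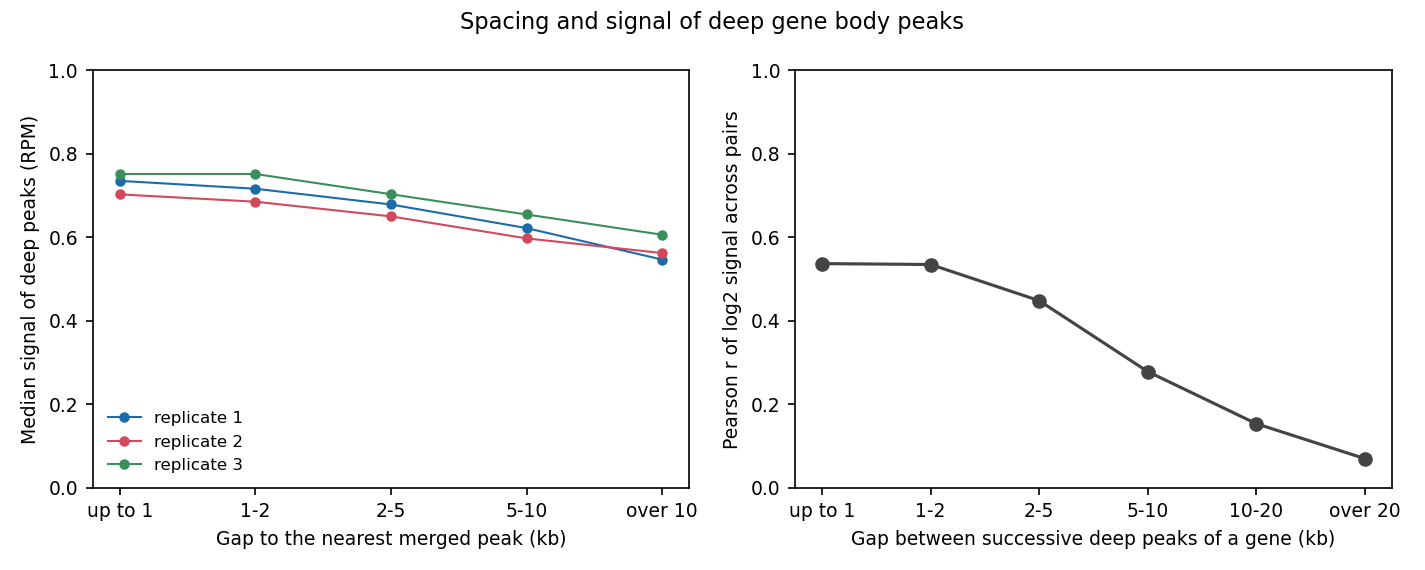
Left, median signal (RPM) of deep peaks in each replicate by the gap to the nearest merged peak; right, Pearson r of log2 signal between successive deep peaks of the same gene by the gap between them. The median fell from 0.730 to 0.572 RPM (means of the replicates), and r fell from 0.537 within 1 kb to 0.0702 beyond 20 kb.

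Genes with many deep peaks had stronger ones. The median signal was 0.599 ± 0.0280 RPM for peaks that were alone in their gene (SD, n = 3), 0.615 ± 0.0246 with 2 or 3 per gene, 0.631 ± 0.0212 with 4 to 6, 0.710 ± 0.0219 with 7 to 12 and 0.842 ± 0.0301 RPM with more than 12. The median rose at each step in every replicate. The rise over the first 3 classes was small, from 0.585 to 0.622, 0.580 to 0.615 and 0.631 to 0.655 RPM in replicates 1, 2 and 3. Each of the last 2 steps was larger in every replicate. The 8538 peaks in genes with more than 6 had medians of 0.754, 0.703 and 0.752 RPM against 0.604, 0.598 and 0.643 RPM for the others. The log2 difference was 0.29, 0.21 and 0.21, with a mean of 0.24 ± 0.05 (SD, n = 3, p = 0.25, exact sign-flip permutation test). Among peaks at or above the median signal it was 0.13. Over the 10 comparisons of median signal, the adjusted p (Benjamini-Hochberg, from the exact permutation tests) was 0.278 for 9 and 0.5 for the comparison with upstream intergenic peaks.

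The largest number of deep peaks was 30, in evm.TU.ctg863.3, a gene of 171 kb with no start peak. Its deep peaks had medians of 1.24, 1.38 and 1.40 RPM in the replicates, and its strongest had 3.43, 4.96 and 3.69 RPM. evm.TU.ctg1232.1, with 29 deep peaks in 195 kb, is annotated as a sequence-specific transcription factor, a protein that binds DNA to control transcription. The annotation of this gene is mixed and also lists calmodulin binding, spectrin binding, endodeoxyribonuclease activity and the ribosome. Its median was 1.70, 1.72 and 1.56 RPM, and 11 of its deep peaks had 2 RPM or more in every replicate. The strongest, at ctg1232:76105-77720, had 11.3, 9.35 and 10.2 RPM at 132 kb from the start.

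evm.TU.ctg538.1, annotated as an endoribonuclease, an enzyme that cuts RNA, also held 29. Its strongest deep peak had 17.5, 12.9 and 14.7 RPM at 163 kb from the start, above its start peak of 7.94, 5.17 and 6.02 RPM in every replicate. The ratio of the mean signals was 2.36, but only 1.04 per kb of peak width. evm.TU.ctg526.18 held 23 deep peaks and is annotated as an exchange factor for ARF, a small GTPase of membrane traffic. Their median was lower, at 1.04, 0.984 and 0.837 RPM. Of the 10 genes with the most deep peaks, evm.TU.ctg1406.3 had the highest median, 2.40, 2.65 and 2.58 RPM over 21 peaks, and evm.TU.ctg786.13 the lowest, 0.679, 0.642 and 0.764 RPM over 22. The others were evm.TU.ctg1159.10 and evm.TU.ctg469.5 with 26 and evm.TU.ctg341.9 and evm.TU.ctg345.33 with 21. A further gene with 21, evm.TU.ctg388.6, was left out of the 10 because its summed signal was lower, and its deep peaks had a median of 0.740 RPM.

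The 10 strongest deep peaks lay in 7 genes, none of which the annotation used here described. Together they held 1.79% ± 0.0303 of the reads of deep peaks (SD, n = 3), and their coefficients of variation between replicates lay between 2.68% and 14.7%. Of the 10, 8 were highest in replicate 1 and 2 in replicate 3. The strongest, at ctg1029:127811-130576 in evm.TU.ctg1029.2, had 99.8, 92.2 and 91.7 RPM, was 2766 bp wide and carried 45 listed summits. It lay 34.4 kb from the start. The next peak of this gene, 851 bp away, had 47.7, 41.7 and 43.1 RPM, and the last of its 3 deep peaks 14.0, 11.8 and 12.9 RPM.

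Inside the body of evm.TU.ctg1029.2 lay 20 merged peaks, and a part played by copy number in their signal was not tested. Of these peaks, 11 were not assigned to this gene and had mean signals from 5.42 to 104.7 RPM. The highest of these had 111, 101 and 102 RPM, so the strongest deep peak was not the strongest peak of this gene body. In evm.TU.ctg496.7, a gene of 67.8 kb, signal was spread over 16 deep peaks with a lowest mean of 1.36 and a median of 8.46 RPM. Its strongest, at ctg496:613546-615656, had 56.1, 53.2 and 54.1 RPM, and 15 of the 16 had 2 RPM or more in every replicate, the largest number in a gene.

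**Figure D5:**
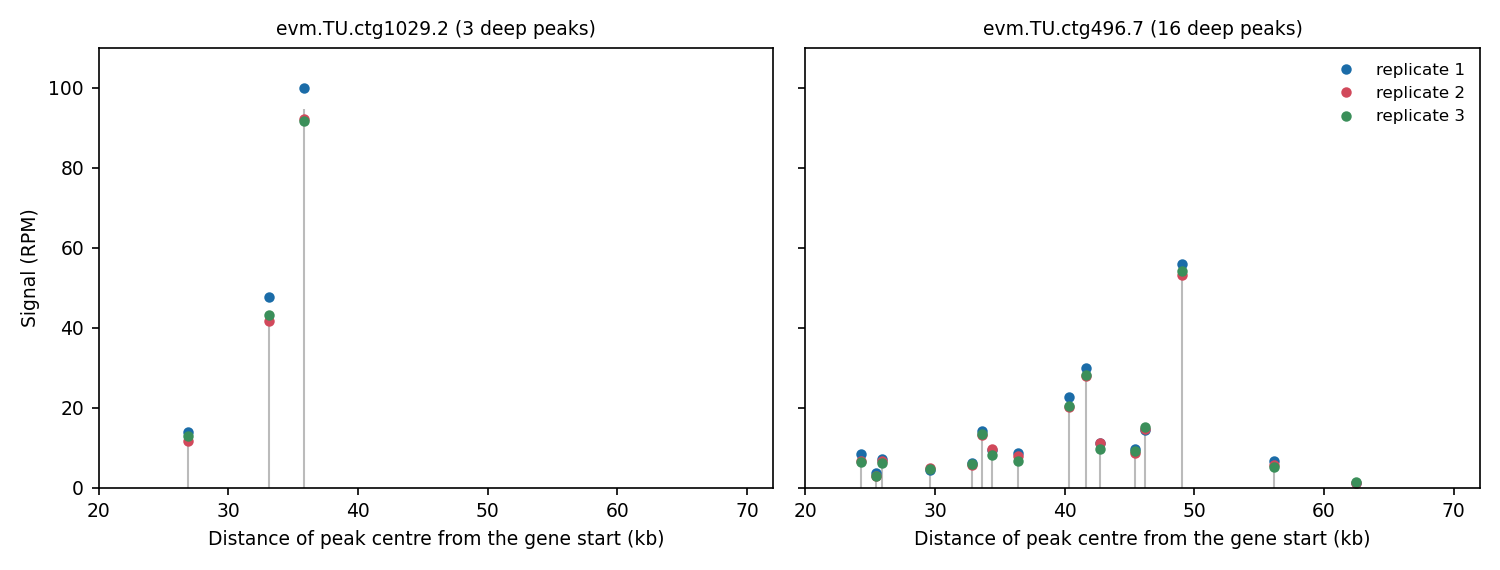
Signal (RPM) of each deep peak in the 2 genes with the strongest ones, by distance of the peak centre from the gene start, with a point for each replicate and a line up to the mean. evm.TU.ctg1029.2 held 3 deep peaks of 12.9 to 94.6 RPM, and evm.TU.ctg496.7 held 16 of 1.36 to 54.4 RPM.

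The other genes among the strongest had 1 such peak each. evm.TU.ctg312.4 had 29.9, 27.2 and 27.5 RPM at 72.1 kb from the start, and evm.TU.ctg955.1 had 27.8, 24.3 and 26.1 RPM at 1.93 kb from the 3′ end. The joined identifier evm.TU.ctg39.22_evm.TU.ctg39.21 had 19.5, 20.8 and 25.7 RPM, highest in replicate 3. evm.TU.ctg44.1.23 had 18.0, 21.1 and 23.2 RPM, and it alone of the 7 genes had a start peak. evm.TU.ctg2066.1 had 21.7, 20.5 and 20.7 RPM, and 5 of its 14 deep peaks had a mean of 10 RPM or more.

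At the other end, the lowest deep peak lay in evm.TU.ctg156.33 and had 0, 0 and 1 reads in replicates 1, 2 and 3, at 67 bp from the next peak. It was the only deep peak with no read in a replicate. The next lowest, in evm.TU.ctg253.2 and evm.TU.ctg490.11, had means of 0.117 and 0.123 RPM. The farthest from a start, in evm.TU.ctg208.30 at 195 kb, had 0.773, 0.615 and 0.607 RPM, near the median of all deep peaks. Those in evm.TU.ctg121.5 and evm.TU.ctg326.4, at 192 kb, had means of 0.542 and 0.685 RPM.

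Just inside the 20 kb limit, at 20.003 kb, were peaks of 0.822 RPM in evm.TU.ctg46.29 and 0.363 RPM in evm.TU.ctg203.7. Just outside it were peaks of 0.535 RPM in evm.TU.ctg54.44 and 0.676 RPM in evm.TU.ctg1001.2. The longest host under the 200 kb limit, evm.TU.ctg231.11, held peaks of 1.23 and 0.397 RPM, and evm.TU.ctg832.3, just above the limit, peaks of 3.55 and 0.457 RPM.

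The study's text discusses 11 genes of signal transduction, of which 7 held deep peaks. evm.TU.ctg321.8, Frizzled-10, a receptor for Wnt ligands, held 2, of 1.06, 0.650 and 0.801 RPM and of 1.57, 1.02 and 1.61 RPM. Both were below its start peak of 5.94, 4.24 and 4.31 RPM in every replicate. evm.TU.ctg71.25, a further G-protein-coupled receptor, held 2 with means of 0.938 and 0.689 RPM. evm.TU.ctg179.30, an opsin, the protein part of a visual pigment, held 5, all with means between 0.280 and 0.530 RPM, below the median of all deep peaks.

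evm.TU.ctg470.4, an epidermal growth factor receptor and thus a receptor tyrosine kinase, held 9 deep peaks with medians of 0.830, 0.703 and 1.10 RPM. Its strongest had 2.53, 1.93 and 2.07 RPM at 39.1 kb from the start. Among the signalling regulators, evm.TU.ctg756.7 is Loco, which in *Drosophila* limits signalling by G proteins, and held 7. The strongest had 2.30, 1.83 and 1.82 RPM, above the start peak of 1.62, 1.42 and 1.31 RPM in every replicate.

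evm.TU.ctg33.11, a GTPase-activating protein for RhoA, which switches this small GTPase off, held 7 with a strongest of 2.36, 2.53 and 3.40 RPM. evm.TU.ctg275.1, which the study links to proton transfer, held 17, the most of these genes, with medians of 1.00, 0.879 and 1.12 RPM. Deep peaks were at 0 in evm.TU.ctg485.29, evm.TU.ctg441.12, evm.TU.ctg470.6 and evm.TU.ctg658.6. Their lengths were 2.21, 247, 31.8 and 22.4 kb, of which the first was too short and the second too long for the rule.

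Gene Ontology terms came from a partial annotation of 460 listed genes that the study had chosen partly on these samples, so they describe that list and are no independent evidence. The 327 annotated hosts held 1914 deep peaks, with medians of 0.830, 0.721 and 0.801 RPM, above all deep peaks in every replicate. The 17 hosts annotated as sequence-specific transcription factors held 125, with medians of 1.30, 1.04 and 1.13 RPM (1.16 ± 0.134, SD, n = 3). In 14 of the 17 the median of the gene's deep peaks was above 0.629 RPM, the median of this value over all hosts, and in 13 it was above 0.752 RPM, the same median over the annotated hosts. At 2 RPM or more in every replicate were 20 of the 125 peaks (16%), 11 of them in evm.TU.ctg1232.1, against 7.16% for all annotated hosts and 5.63% of all deep peaks. Without that gene the share was 9.38% and the median signal 1.09 ± 0.157 RPM (SD, n = 3).

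Examples among the transcription factors were evm.TU.ctg345.15, whose strongest deep peak had 10.4, 7.10 and 7.02 RPM, and evm.TU.ctg90.9, with 7.66, 4.80 and 5.58 RPM. Replicate 1 was the highest at both. At the low end, evm.TU.ctg43.67, evm.TU.ctg7.20 and evm.TU.ctg660.28 had medians of 0.397, 0.481 and 0.508 RPM. Other terms gave medians of 0.984 ± 0.135 RPM for zinc ion binding, which shares genes with the transcription factors, 0.827 ± 0.0921 for signal transduction and 0.799 ± 0.0648 for protein kinases. Cytoskeleton, proteolysis, transport, membrane and calcium binding lay between 0.671 and 0.735 RPM. The 3 annotated G-protein-coupled receptors with deep peaks had 5, with a median of 0.951 ± 0.116 RPM. This group leaves out the opsin evm.TU.ctg179.30, a receptor of this kind in the study, because the annotation does not list it. Its 5 deep peaks were low, with means between 0.280 and 0.530 RPM, so the group median does not describe such receptors in general. The annotation groups were formed after the values were seen.

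The replicates were close to each other at the deep peaks. The biological coefficient of variation from edgeR was 0.193 for deep peaks, 0.186 for early peaks, 0.201 for deep peaks of long genes, 0.192 for upstream intergenic peaks and 0.208 for start peaks. Without replicate 1 it was 0.165 for the deep peaks and 0.0920 for the start peaks. With all 3 replicates it was 0.188 over all merged peaks. With counts halved, as if each read pair counted once, it was 0.125 for the deep, 0.127 for all and 0.185 for the start peaks. Log2 signals of pairs of replicates had Pearson r of 0.852, 0.872 and 0.878 across the deep peaks, which share libraries and are not independent. Across all merged peaks r was 0.876, 0.893 and 0.901 for the same pairs. Among the 1525 deep peaks with at least 100 reads in every replicate, the highest replicate was 2 or more times the lowest at 12 (0.787%), against 0.654% of all merged peaks with such counts. By the coefficient of variation and the share of 2-fold differences, deep peaks thus varied about as much as the list. Their r between replicates was lower than that of all merged peaks in every pair.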

How the data were processed

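Per the study's methods, the authors used skewer for trimming, BWA for alignment to ASM3288406v1 (*Artemia franciscana*), MACS2 for peaks and ChIPseeker for their genes. Reads with a low mapping score, duplicate reads and those of mitochondria had been removed. BWA and MACS2 stand in the submitters' processing notes too. The authors deposited raw read counts for each merged peak in each library. The deposited RPM values are (count + 1) scaled to a library total, which was recovered from them. Divergence from the assembly's species lowers counts where reads could not be aligned. For its correlations the study merged the peaks of all its samples, those of diapause and of a later time included. It does not say whether the deposited table is that set, so shares and densities of peaks describe the list. Whether both mates of a pair were counted is not stated. The recovered library totals were well above the study's deduplicated read numbers, so both mates were probably counted. Columns of samples outside the series numbered 0.

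Classes of peaks were compared in each replicate by the median of log2(RPM + 0.0691), where the pseudocount is 0.1 of the median, with an exact, two-sided permutation test that flips the signs of the 3 replicate differences and cannot go below p = 0.25. Within genes, the mean log2 value of each class was subtracted first. Genes and peaks are not replicates and got no p. The spread was the common dispersion of edgeR 4.0.16 (R 4.3.3) with TMM factors from all peaks and an intercept only. Tables were handled in pandas 2.3.3 and numpy 2.4.6. Both steps were tested on simulated data. Alternatives changed the pseudocount, the unit, the scale, the peaks kept, the limits of the rule and the libraries.

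Named were the 10 strongest peaks, the 10 genes with the most (ties by summed signal), the 10 genes with the largest excess over the start peak, the 3 farthest and the 3 lowest peaks, the 11 genes in the study's text and the peaks next to the thresholds. Transcription factor genes and gene groups by annotation were added after their values were seen. The members and lists were chosen with earlier results of these data known, and 4 comparisons (peak over the start, neighbour within 2 kb, more than 6 per gene, and distance within a gene) were added after seeing the data.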

Additional observations from a re-analysis of the deposited data

How the results depend on the processing

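Of the 125 values under other settings, 97 belonged to the 10 comparisons, and only these were checked for a turn in direction. Of these 97, 5 turned. Of 97 values of the 10 comparisons, 30 moved by over 1.5 times or turned, and all 10 comparisons did so with a pseudocount 10 times larger, which compresses differences, and among peaks at or above the median signal. That last setting selects peaks by the signal compared, so it alters differences by construction. There deep minus start within genes was -0.89 and deep minus upstream intergenic -0.09. Deep minus upstream intergenic turned to 0.040 per kb of width and to 0.048 among peaks of 200 to 400 bp. Deep minus early within genes turned to 0.00059 with a pseudocount 10 times larger and to 0.028 among peaks at or above the median signal, where the difference by presence of a start peak turned to -0.0055. Scaling to reads in merged peaks gave a median signal of 5.47 RPM of those reads and a replicate 1 ratio of 0.940. Per kb of width the median was 2.13 RPM, against 2.15 RPM for all merged peaks, and the share above the all-peak median in every replicate 28.5%. With a replicate left out this share was 37.5% to 38.4%, since fewer replicates had to pass. The share of all merged peaks under these settings is not given. These shares therefore cannot be set against the background of the main setting. A length limit of 100 kb left 10566 deep peaks. The coefficient of variation was 0.125 with counts halved, 0.164 with at least 20 reads in every replicate and 0.165 to 0.213 with a replicate left out. Other causes were not tested. No paired comparison between groups of samples was possible because the samples form 1 group. Classes of peaks were paired within each replicate. A single read was worth 0.0189, 0.0176 and 0.0121 RPM in replicates 1, 2 and 3, which sets the precision of weak peaks.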
